A study of Mus musculus with 8 samples.

Results

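Foxp3, Ikzf2 and Ikzf4 were followed across single-cell RNA libraries of T cells from the mouse colon. They were chosen by gene symbol, as the 3 transcription factors of the regulatory T cell program named Foxp3, Helios (the product of Ikzf2) and Eos (the product of Ikzf4), and are 3 of 31053 genes in the deposited tables. The study asked how cells of the colonic lamina propria (the tissue just beneath the gut epithelium) differ between wildtype C57BL/6 mice and mice with a serine point mutation, with and without colitis. The series names the mutant RORgtS182A and the sample titles name it S203AKI, and both names are used here for the 1 mutant that the labels describe.

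There were 4 groups with 2 libraries each, described by the submitters as independent biological replicates: untreated wildtype, untreated mutant, wildtype after dextran sulfate sodium (DSS) and mutant after DSS. All mice were 10 to 12 weeks old. DSS, a chemical that injures the colon epithelium, was given at 2% in drinking water for 7 days, regular water followed for 3 days, and tissue was taken on day 10. Untreated mice had regular water for 10 days. CD4+ cells were enriched with a magnetic kit and sequenced with a method that counts the 3′ ends of messenger RNAs by unique molecular identifiers (UMIs, 1 per captured molecule).

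Regulatory T cells (Tregs) restrain other immune cells and are abundant in the gut wall. Foxp3 is the forkhead factor that defines the lineage, and its loss causes fatal autoimmunity. Helios and Eos are zinc finger factors of the Ikaros family: Helios is common in Tregs made in the thymus and helps keep their identity under inflammation, and Eos works with Foxp3 to silence genes. In the gut, Tregs induced by microbes are largely low in Helios, whereas those with Gata3 and the IL-33 receptor (Il1rl1) are usually Helios-positive.

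The genes lie on 3 chromosomes of the mouse build mm10 (coordinates from RefSeq, GRCm38.p6). Foxp3 (ENSMUSG00000039521) spans chrX:7579676-7595243 on the plus strand, Ikzf2 (ENSMUSG00000025997) chr1:69531207-69687351 on the minus strand, and Ikzf4 (ENSMUSG00000002578) chr10:128630839-128669671 on the minus strand. Ccdc22 lies on the opposite strand over the 3′ end of Foxp3, and Gm29114 over that of Ikzf2. Whether counting used strand is not given in the sources used here, so reads of these pairs may have been mixed. Ccdc22 itself was counted at 9.58 ± 1.53 CPM (UMIs of a gene per 1000000 UMIs of the summed cells) in untreated and 12.4 ± 1.27 CPM in DSS T cells (SD, n = 4 libraries).

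RefSeq promoter windows, from 250 bases before to 50 after a start site, were matched for 1 of the 3 genes. The pair for Foxp3, the gene whose RNA changed most after DSS, is printed here from GRCm38.p6 on the plus strand. Capitals mark the only matches, on either strand, to 4 motifs searched, which were GGGAA for the Ikaros family core, TGTGGT for Runx factors, TGTTTAC for forkhead factors and AGATAA for zinc finger factors of the Gata family.
Foxp3 window 1, chrX:7579426-7579725: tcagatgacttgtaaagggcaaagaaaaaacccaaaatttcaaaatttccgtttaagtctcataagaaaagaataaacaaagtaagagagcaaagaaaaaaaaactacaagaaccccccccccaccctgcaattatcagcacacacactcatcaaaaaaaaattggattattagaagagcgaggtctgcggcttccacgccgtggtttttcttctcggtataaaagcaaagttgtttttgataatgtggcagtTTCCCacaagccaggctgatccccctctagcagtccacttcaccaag
Foxp3 window 2, chrX:7580233-7580532: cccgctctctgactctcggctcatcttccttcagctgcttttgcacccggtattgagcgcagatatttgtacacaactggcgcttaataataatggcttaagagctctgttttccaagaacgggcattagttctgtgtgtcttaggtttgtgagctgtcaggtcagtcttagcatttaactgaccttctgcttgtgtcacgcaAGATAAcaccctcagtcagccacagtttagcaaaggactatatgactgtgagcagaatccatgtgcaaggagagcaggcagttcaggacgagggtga
The first window holds GGGAA on its minus strand, beginning 4 bases into the transcript, and the second holds AGATAA beginning 47 bases before its own start site. Of the 32851 windows of this length in the table, the Ikaros core is in 62.7%, the Gata motif in 11.2%, the Runx motif in 16.8% and the forkhead motif in 3.65%. Only the exact letters given were searched, so variants of each motif are not marked. These letters describe the region only, since 3′ counts do not measure the promoter.

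The files held 100673 barcodes, of which the submitters listed 27420 as cells, all of which had 1 or more Cd4 UMIs, 400 or more genes and a mitochondrial share below 20%. Clustering and marker genes put 20736 of them in 10 clusters of T cells, with 1776 to 3752 cells and 6165481 to 14943026 UMIs per library. Pairs of libraries shared at most 9 listed barcodes. A cluster led by Tgm4, Pbsn and Svs5, genes of male accessory glands, drew 35.5% of its 825 cells from untreated mutant replicate 1. It held 12.8% ± 5.2 of T cells in the untreated mutant group and 3.25% ± 1.81 in untreated wildtype (SD, n = 2). After DSS it held 1.72% ± 0.369 in wildtype and 1.47% ± 0.236 in mutant mice. A cluster of follicular helper T-like cells was led by haemoglobin genes. Transcripts of other cells were present in every library and some sums separated the treatments. The 5 neutrophil markers summed to 0.458 to 1.29 CPM in untreated and 3.48 to 11.8 CPM in DSS T cells, the 5 squamous epithelial markers to 0 to 0.487 and 0.671 to 6.54 CPM, and the 7 dendritic cell markers, of which Clec9a was at 0, to 118 to 141 and 148 to 239 CPM. Sums that overlapped included those of 5 plasma cell markers, at 432 to 978 and 507 to 2460 CPM, 7 macrophage or monocyte markers, at 68.1 to 136 and 70.7 to 223 CPM, 6 fibroblast markers, at 11.3 to 17.7 and 9.11 to 42.3 CPM, 5 mast cell markers, at 0 to 0.302 and 0.0669 to 17.3 CPM, and 5 smooth muscle or pericyte markers, at 11.6 to 52.1 and 5.75 to 13.2 CPM. Counts cannot show the point mutation.

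Foxp3 RNA was higher in colonic T cells after DSS in both genotypes. Over all T cells of a library, it was at 57.9 and 52.5 CPM in untreated wildtype, 48.7 and 34.4 in untreated mutant, 122 and 145 in wildtype after DSS, and 112 and 149 in mutant after DSS. Each of the 4 DSS libraries lay above each of the 4 untreated ones, both untreated mutant libraries lay below both untreated wildtype ones, and the genotypes overlapped after DSS. The group means were 55.2 ± 3.81, 41.5 ± 10.1, 134 ± 16.4 and 130 ± 26 CPM (SD, n = 2), in the same order. In bulk sums of this kind, more Foxp3-expressing cells and more Foxp3 RNA per cell cannot be told apart.

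edgeR's quasi-likelihood test over all genes gave a log2 change in Foxp3 of 1.21 ± 0.18 (SE) in wildtype (adjusted p = 0.0321) and 1.57 ± 0.18 in mutant mice (adjusted p = 0.0105). The background of calls was unequal: 23 of 11039 genes passed in wildtype (0.208%, 15 higher and 8 lower) and 551 in mutant mice (4.99%, 251 higher and 300 lower). The difference between the genotypes' responses was 0.37 ± 0.25 on the log2 scale and was not called (edgeR adjusted p = 0.998). With 2 libraries a group the calls rested on single libraries. In wildtype, Foxp3 kept log2 changes of 1.1 to 1.33 but lost its call without untreated replicate 1 (edgeR adjusted p = 0.193), untreated replicate 2 (0.419) or DSS replicate 2 (0.204). In mutant mice, the change was 1.36 to 1.82 and the call was lost without untreated replicate 1. That library gave the largest share (35.5%) of the cells in the cluster led by accessory gland genes. The cluster had Foxp3 at 17.5 CPM and held 12.8% of T cells in the untreated mutant group, against 1.47% in mutant mice after DSS. Its part in the mutant change was not tested. In a separate alternative, T cells carrying 2 or more UMIs of B cell, macrophage or monocyte, neutrophil, stromal, glial or epithelial markers were left out. Foxp3 then changed by 1.13 in wildtype and 1.61 in mutant mice, with edgeR adjusted p-values of 0.0226 and 0.00541. Dendritic, plasma and mast cell markers were not part of this filter.

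Helios RNA was also higher after DSS in every library, by less, and did not pass. Ikzf2 was at 204 and 192 CPM in untreated wildtype, 193 and 184 in untreated mutant, 262 and 311 in wildtype after DSS, and 236 and 305 in mutant after DSS. The untreated libraries sat within 184 to 204 CPM and the DSS libraries ranged more widely. Its log2 change was 0.46 ± 0.14 in wildtype (edgeR adjusted p = 0.133) and 0.44 ± 0.14 in mutant mice (0.0826). With no filter on low counts, Ikzf2 was called in both genotypes (edgeR adjusted p = 0.0238 and 0.0154), at a log2 change of 0.47 in each. All calls rose with that setting, from 23 to 846 genes in wildtype and from 551 to 1615 in mutant mice. In mutant mice Ikzf2 was also called when barcodes off the list were added (edgeR adjusted p = 0.0453), where 1054 genes were called.

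Eos RNA followed the same order at low counts. Ikzf4 was at 21.1 and 19.1 CPM in untreated wildtype, 18.8 and 20.2 in untreated mutant, 34 and 31.4 in wildtype after DSS, and 25.6 and 23.6 in mutant after DSS. The treatments did not overlap, and after DSS both wildtype libraries lay above both mutant ones. The log2 change was 0.64 ± 0.14 in wildtype (edgeR adjusted p = 0.0779) and 0.25 ± 0.14 in mutant mice (adjusted p = 0.282). With no filter on low counts the edgeR adjusted p in wildtype was 0.00853, where 846 genes were called against 23 with the filter. All 3 members thus had every DSS library above every untreated one, a pattern shared by 17.5% of all tested genes (1930 of 11039).

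**Figure D1:**
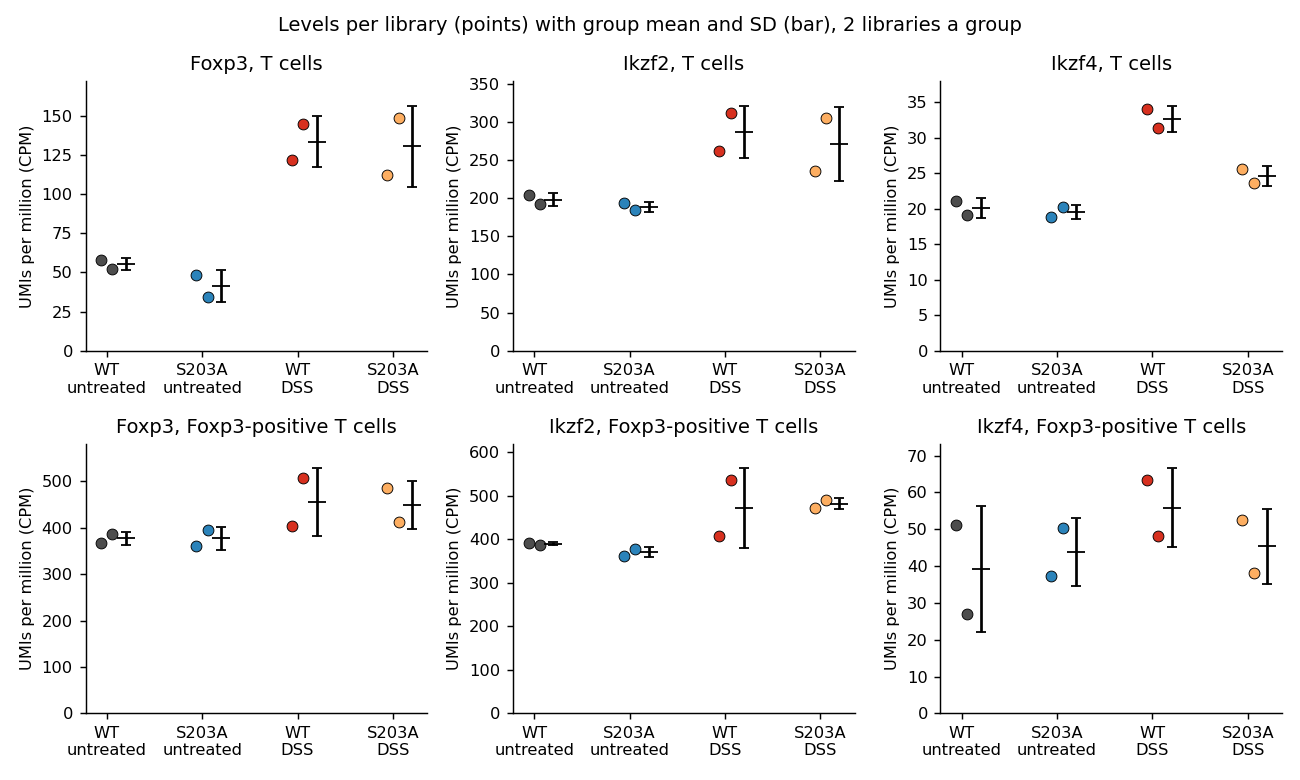
Level of Foxp3, Ikzf2 and Ikzf4 in CPM, on linear axes from 0, for each of the 8 libraries by group (points: libraries; bars: group mean and SD, n = 2), in all T cells above and in Foxp3-positive T cells below. In all T cells, Foxp3 in the 4 DSS libraries (112 to 149 CPM) lies above the 4 untreated ones (34.4 to 57.9 CPM).

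The share of T cells with at least 1 Foxp3 UMI separated the treatments as well. Because deeper cells show more UMIs, each cell was thinned to 1000 UMIs, which left out 178, 53, 211 and 155 shallower cells in untreated wildtype, untreated mutant, DSS wildtype and DSS mutant. Foxp3 was then detected in 4.81% and 4.28% of untreated wildtype T cells, 4.24% and 3.12% of untreated mutant, 10.5% and 11% of wildtype after DSS, and 9.18% and 10.9% of mutant after DSS. The DSS libraries averaged 10.4% and the untreated 4.11%, a difference of 6.29 percentage points (exact two-sided permutation within genotype, p = 0.0556, the smallest that 36 labellings allow; 0.167 after adjustment over 18 such tests). Without thinning the shares were 10.1% ± 0.189 and 8.63% ± 2.53 in untreated wildtype and mutant, and 21% ± 0.741 and 21.1% ± 6.44 after DSS (SD, n = 2). At 1000 UMIs per cell, a depth that leaves the value near its floor of 1, UMIs per Foxp3-positive cell overlapped between the treatments: 1.16 to 1.33 in untreated and 1.23 to 1.29 in DSS libraries (difference 0.0125, exact permutation p = 0.667). Without thinning, 2 or more Foxp3 UMIs were found in 34.9% to 43.2% of Foxp3-positive cells in untreated and 45.8% to 60.6% in DSS libraries, which do not overlap, at median depths of 2891 to 3509 and 2788 to 4176 UMIs. Foxp3 in these cells was at 378 ± 13 and 378 ± 24.8 CPM in untreated wildtype and mutant, and at 455 ± 73.4 and 449 ± 51.3 CPM after DSS (SD, n = 2), a description only since the cells were chosen by Foxp3.

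Background detection of Foxp3 was low in the classes measured, which were barcodes off the list, pooled over treatments and without a dendritic class. After the same thinning, 0.387% of 3871 B cell-like barcodes (median 1729 UMIs), 0.309% of 6469 fibroblast-like barcodes (4534) and 0.732% of 4917 macrophage or monocyte-like barcodes (3124) had a Foxp3 UMI, against 7.95% of 20139 T cells (2408). For Ikzf2 the same classes gave 0.956%, 1.95% and 2.38% against 16.6% of T cells. For Ikzf4 they gave 0.258%, 1.79% and 0.285% against 2.14%, so that detection of Eos in T cells was close to that in fibroblast-like barcodes and above that in the other classes. Without thinning, listed clusters that are not T cells had Foxp3 from 7.74 CPM (macrophage or monocyte-like L4) to 72.3 CPM (unnamed L20, 54 cells). Dendritic-like L16 was at 66.5 CPM. In dendritic-like U17, off the list, Foxp3 was at 5.12 to 9.93 CPM in untreated and 32.2 to 61.6 CPM in DSS libraries. The part of such barcodes in the T cell values was not tested.

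Helios was found in a larger share of T cells after DSS, and with more UMIs per positive cell. Its thinned share was 15.1% and 13.3% in untreated wildtype, 15% and 12.6% in untreated mutant, 18% and 19.5% in wildtype after DSS, and 15.9% and 19.6% in mutant after DSS. The DSS libraries averaged 18.2% against 14% (difference 4.24 points, exact permutation p = 0.0556, adjusted 0.167). UMIs per Ikzf2-positive cell were 1.37 to 1.49 in untreated and 1.57 to 1.66 in DSS libraries (difference 0.175, exact permutation p = 0.0556, adjusted 0.167). The Eos share was 1.39% to 1.89% in untreated and 2.07% to 2.86% in DSS libraries (difference 0.784 points, exact permutation p = 0.0556, adjusted 0.167). The untreated range includes the 1.79% of fibroblast-like barcodes, and the DSS range lies above it. Both ranges lie above the 0.258% and 0.285% of B cell-like and macrophage or monocyte-like barcodes.

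Foxp3 was also detected in more of the Helios-positive cells after DSS. Among Ikzf2-positive T cells, a Foxp3 UMI was found in 8.94%, 9.78%, 7.28% and 8.61% of cells in the untreated wildtype and mutant libraries, and in 20%, 21.7%, 20% and 22.1% after DSS. The means were 8.65% and 21% (difference 12.3 points, exact permutation p = 0.0556, adjusted 0.167). Among Foxp3-positive cells, an Ikzf2 UMI was found in 28.1%, 30.3%, 25.7% and 34.8% of untreated and 34.5%, 38.5%, 34.6% and 39.6% of DSS cells, so that untreated mutant replicate 2 overlapped the DSS libraries (difference 7.02 points, exact permutation p = 0.111, adjusted 0.286). Among Foxp3-negative cells it was 11.9% to 14.5% and 14% to 17.2%. An Ikzf4 UMI was found in 1.12% to 7.58% of untreated and 5.26% to 9.09% of DSS Foxp3-positive cells, which overlap (exact permutation p = 0.611).

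**Figure D2:**
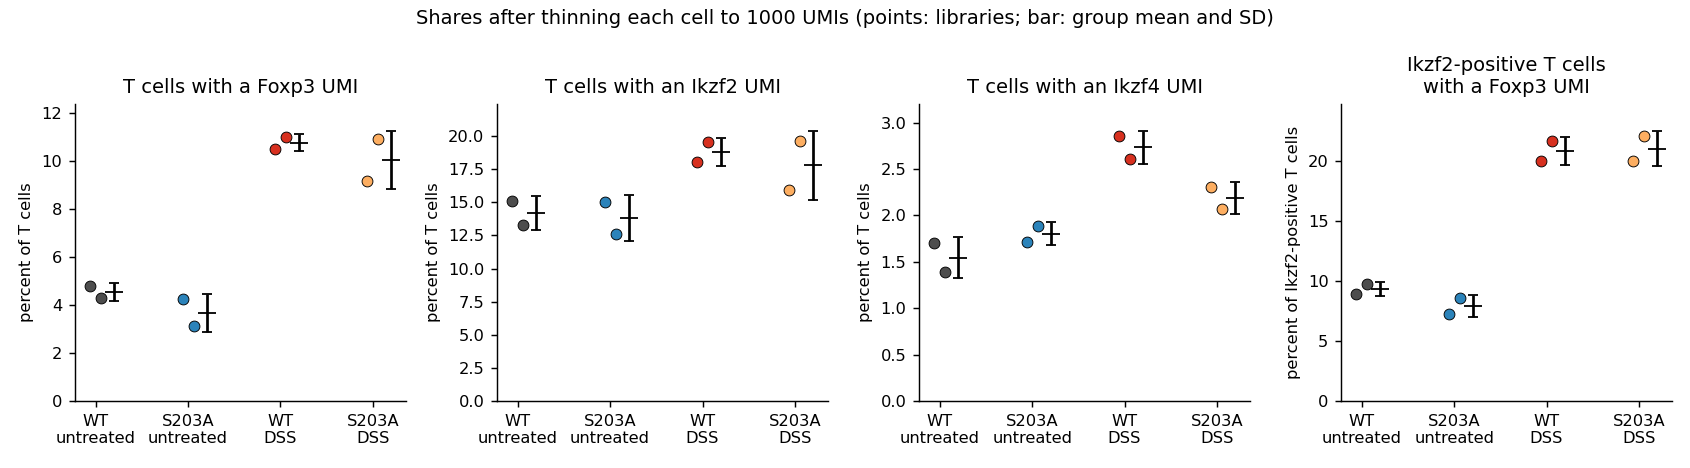
Percentage of T cells thinned to 1000 UMIs with a UMI of Foxp3, Ikzf2 or Ikzf4, and percentage of Ikzf2-positive T cells with a Foxp3 UMI, for each library by group (points: libraries; bars: group mean and SD, n = 2). Foxp3 detection lies at 3.12% to 4.81% in untreated and 9.18% to 11% in DSS libraries.

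Within Foxp3-positive T cells, Helios and Eos were not called after DSS. Foxp3-positive cells numbered 3450 (146 to 961 per library). In them Ikzf2 was at 392 and 387 CPM in untreated wildtype, 362 and 378 in untreated mutant, 407 and 536 in wildtype after DSS, and 472 and 490 in mutant after DSS. The DSS libraries all lay above the untreated ones, as did those of 11% of tested genes (923 of 8423). Its log2 change was 0.23 ± 0.14 in wildtype (edgeR adjusted p = 0.456) and 0.34 ± 0.15 in mutant mice (0.234), where 0.807% (68) and 2.02% (170) of 8423 genes were called. Ikzf4 was at 51.2, 27, 37.2 and 50.3 CPM in untreated and 63.4, 48.2, 52.6 and 38.1 CPM in DSS libraries, which overlap, with log2 changes of 0.47 ± 0.27 and -0.01 ± 0.29 (edgeR adjusted p = 0.417 and 0.994).

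Other Treg genes did change with DSS in these cells, and some were also called in Foxp3-negative cells of mutant mice. Of 20 genes of the Treg signature, 2 rose in wildtype, where 0.807% of all genes were called, Itgae (the integrin CD103; log2 change 1.39) and Tnfrsf9 (the costimulatory receptor 4-1BB; 0.74). In mutant mice, where 2.02% were called, 3 rose, Tnfrsf9 (0.82), Il2ra (the IL-2 receptor alpha chain; 0.75) and Itgae (1.05), and Tnfrsf4 (OX40; -0.66) fell. Median changes of the list were 0.15 and -0.19, against 0 and 0.01 over all genes. Of 11 genes listed as silencers of Foxp3, 1 fell in each genotype, Id2 (an inhibitor of E proteins), by 0.76 in wildtype and by 0.67 in mutant mice. None of 25 genes listed as inducers of Foxp3 passed in Foxp3-positive cells of either genotype. These calls rested on single libraries. In wildtype Itgae, Tnfrsf9 and Id2 each lost theirs without untreated replicate 1, untreated replicate 2 or DSS replicate 2, and in mutant mice all 5 were lost without untreated replicate 1 and all but Tnfrsf9 without untreated replicate 2, with every direction kept. After thinning the called genes among them were Itgae in wildtype (2.32) and Tnfrsf4 in mutant mice (-0.88). The others were not called but kept their direction. Their thinned changes were 1.04 for Tnfrsf9 and -0.66 for Id2 in wildtype. In mutant mice they were 0.94 for Tnfrsf9, 1.37 for Itgae, 0.82 for Il2ra and -0.65 for Id2. The wildtype count of 68 called genes became 8 and 0 without untreated replicates 1 and 2, 120 and 15 without DSS replicates 1 and 2, and 197 and 184 without mutant DSS replicates 1 and 2. The mutant count of 170 became 17 and 28 without untreated replicates 1 and 2, and 309 and 39 without DSS replicates 1 and 2. Genes of other lists also passed after DSS in mutant Foxp3-positive cells. Tcf7 (-1.28), Nkg7 (-1.19), Klf2 (-0.93), S1pr1 (-1.09) and Ifng (-1.78) were among those lower, and Il7r (0.8) was higher. Whether these further calls held with single libraries left out is not given here. The summed neutrophil markers were 0 CPM in all 4 untreated libraries and 2.6 to 7.71 CPM in the DSS libraries of Foxp3-positive cells, and their part in these changes was not tested.

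In Foxp3-negative T cells, Ikzf2 was at 169, 162, 167 and 165 CPM in untreated wildtype and mutant, and at 199, 221, 166 and 202 CPM after DSS. Both wildtype DSS libraries lay above the untreated ones, while mutant DSS replicate 1 lay among them; 14.1% of 10663 genes (1506) had all DSS libraries higher, and Ikzf2 did not. The log2 changes were 0.3 ± 0.13 and 0.09 ± 0.13 (edgeR adjusted p = 0.273 and 0.699), and those of Ikzf4 0.42 ± 0.16 and -0.08 ± 0.17 (0.249 and 0.801). Calls covered 0.122% (13) of genes in wildtype and 2.32% (247) in mutant mice. Those in mutant mice included Itgae (log2 change 0.97), Tnfrsf9 (0.98) and Tnfrsf4 (-0.88), in the same directions as in mutant Foxp3-positive cells. Il2ra (0.28) was not called. Foxp3-negative cells include Tregs whose Foxp3 RNA was not captured.

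Over all T cells, part of the Treg signature passed in both genotypes. In wildtype after DSS, 2 of 20 Treg signature genes rose, Itgae from 13 ± 2.36 to 45.3 ± 4.4 CPM (log2 change 1.74 ± 0.16) and Tnfrsf9 from 125 ± 25.4 to 300 ± 16.2 CPM (1.19 ± 0.14), and none of 25 inducers, 11 silencers or the other Ikaros genes passed, where 0.208% of all genes did. In mutant mice, where 4.99% of all genes passed, 4 of the 20 rose, Itgae (1.6), Tnfrsf9 (1.36), Il2ra (0.68) and Ebi3 (a subunit of IL-35; 1.01), and 2 fell, Cd83 (-1.08) and Tnfrsf4 (-0.69). Among inducers Cbfb (the partner of Runx proteins, 0.73) and Stat5b (the IL-2 signal transducer, 0.55) rose and Nr4a2 (an orphan nuclear receptor, -0.95) fell. Among genes listed as silencers Socs1 fell. Ikzf1 (Ikaros) and Ikzf3 (Aiolos) had log2 changes of 0 ± 0.14 and -0.12 ± 0.17 in wildtype, and -0.16 ± 0.14 and 0.05 ± 0.17 in mutant mice. In wildtype, Itgae lost its call without untreated replicate 2, and Tnfrsf9 without that library or DSS replicate 2. The wildtype count of 23 calls became 4 and 0 without untreated replicates 1 and 2, 122 and 5 without DSS replicates 1 and 2, and 76 and 70 without mutant DSS replicates 1 and 2. In mutant mice each of these list genes lost its call without untreated replicate 1, Itgae and Tnfrsf9 kept theirs when any other single library was left out, and Stat5b lost its call whichever of the 8 was left out. The mutant count of 551 calls fell to 0 without untreated mutant replicate 1, to 39 without untreated mutant replicate 2, to 28 without mutant DSS replicate 2, and to 124 and 123 without untreated wildtype replicates 1 and 2.

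The mutation did not give a called difference in any of the 3 genes. Foxp3 was lower by a log2 value of -0.41 ± 0.19 in untreated mutant T cells (edgeR adjusted p = 0.933) and differed by -0.05 ± 0.17 after DSS. For Ikzf2 the differences were -0.07 ± 0.14 and -0.09 ± 0.14. Ikzf4 differed by -0.04 ± 0.14 in untreated and -0.43 ± 0.13 in DSS T cells, where the edgeR adjusted p was 1. Both mutant DSS libraries lay below both wildtype ones for Ikzf4, as did the untreated ones for Foxp3. The share of all genes with such an order in 2 against 2 libraries is not given here, so these orders are descriptions only. With 2 against 2 libraries, a p that misses the threshold does not show equal levels.

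No gene was called for the mutation or its interaction with DSS in T cells: 0 of 11039 genes (0%) in untreated mice, after DSS and for the interaction, with 581, 188 and 433 genes at an unadjusted edgeR p under 0.05. DESeq2 called 14 genes in untreated mice and 0 in the other comparisons. In Foxp3-positive cells 0 of 8423 genes passed in each, with 458, 162 and 356 at an unadjusted edgeR p under 0.05. The 0 in untreated mice did not hold over most settings. DESeq2 called 4 genes, no filter 23, only the libraries compared 9, T cells by marker counts 3 and thinning 3. Leaving out cells with UMIs of other lineages gave 7, and a Foxp3 gate of 2 UMIs gave 3. In Foxp3-positive cells Ikzf2 differed by -0.08 ± 0.15 in untreated mice and 0.03 ± 0.14 after DSS, and Ikzf4 by 0.12 ± 0.33 and -0.37 ± 0.23. In Foxp3-negative cells 0 of 10663 genes passed (524, 206 and 445; DESeq2 called 16 in untreated mice), and Ikzf4 differed by 0 ± 0.17 in untreated mice and -0.5 ± 0.16 after DSS (edgeR adjusted p = 1). UMIs per Foxp3-positive T cell were 1.28 to 1.33 in mutant and 1.16 to 1.24 in wildtype libraries (difference 0.0902, exact permutation p = 0.0556, adjusted 0.167), and the difference was -0.0165 when T cells were chosen by marker counts.

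Comparison of cells within a library, in 8 pairs of summed Foxp3-positive and Foxp3-negative T cells, showed how far Helios and Eos go with Foxp3. Ikzf2 was at 428 ± 62.9 CPM in Foxp3-positive and 181 ± 22.5 CPM in Foxp3-negative cells (SD, n = 8), a log2 difference of 1.13 ± 0.05 (edgeR with library as a block, adjusted p = 2.00e-14; higher in 8 of 8 libraries). Ikzf4 was at 46 ± 11.3 and 18.2 ± 3.25 CPM, a log2 difference of 1.23 ± 0.1 (adjusted p = 4.96e-10; higher in 8 of 8). Over the alternatives these ranged from 1.08 to 1.34 and from 1.18 to 1.55. The contrast is broad: 3651 of 10025 genes (36.4%) were called, 1814 higher and 1837 lower. Foxp3-positive cells were deeper, with library medians of 2788 to 4176 UMIs against 1798 to 2597, and after thinning 1168 genes of 7069 genes were called (16.5%), of which 1066 were called in the same direction without thinning.

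Foxp3-positive cells carried the Treg program. Of the 20 signature genes 18 were higher and none lower (median log2 difference 1.04, against 0 over all genes), and after thinning 15 of 17 were higher. Itgae rose from 14.4 to 68.9 CPM (2.14 ± 0.09), Gzmb (the protease granzyme B) from 135 to 565 (1.97 ± 0.09), Tnfrsf9 from 128 to 459 (1.77 ± 0.06) and Il10 (a suppressive cytokine) from 70.6 to 257 (1.71 ± 0.09). Among all genes the largest differences also included Itgb8 (1.87), an integrin chain that activates TGF-β, Il1rl1 (1.83), Mmp9 (1.74), a matrix protease, and Wls (1.68), needed to secrete Wnt proteins. Of 11 genes of tissue Tregs, 9 were higher, with Tnfrsf9, Ccr2 (1.17), Klrg1 (2.37) and Il1rl1 among them.

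Genes that act on Foxp3 did not share that direction, and are to be read against the 36.4% of all genes called, or 16.5% after thinning. Of 25 inducers, 12 were lower and 1 higher in Foxp3-positive cells, among them Tgfbr2 (a TGF-β receptor chain; from 137 to 73.6 CPM, -1.08 ± 0.08), Nr4a2 (-1.1), Nr4a3 (-0.74) and Satb1 (a chromatin organizer; -0.58). After thinning 8 were lower and 3 higher. Of 11 genes listed as silencers 3 were higher and 3 lower. Socs1 (-0.79) and Gfi1 (-0.66) were lower, and the DNA methylation factors Uhrf1 (0.55) and Dnmt1 (0.36) higher. After thinning 1 passed in each direction. A place on the list does not show a gene's effect on Foxp3 in these cells. Cells of the proliferating-like cluster made up 13.8% of Foxp3-positive and 7.25% of all T cells. Of 19 protein partners of Foxp3 measured, 5 were higher, such as Gata3 (0.47) and Hdac7 (0.49), and 6 lower, such as Tcf7 (-1.55) and Lef1 (-0.93). Within the Ikaros family, Ikzf1 was lower (-0.42 ± 0.05, from 138 to 110 CPM), Ikzf3 slightly higher (0.19 ± 0.06, adjusted p = 0.0127, higher in 7 of 8 libraries; not called after thinning) and Ikzf5 was not called, and Foxp1, a forkhead relative, was lower by a log2 value of -0.2.

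Most Th1 genes were lower in Foxp3-positive cells. Of 9 Th1 genes 8 were lower (median -1.28), including Gzmk (granzyme K; -2.16), Eomes (a T-box factor; -2.56), Ccl5 (a chemokine; -1.28) and Ifng (interferon gamma; from 219 to 80.2 CPM, -1.75). Of 11 Th17 genes 5 were lower and 2 higher, with Il17a from 736 to 267 CPM (-1.56) and Il17f from 82.3 to 28.3 CPM (-1.64). The largest falls over all genes included Cd40lg (CD40 ligand, the helper signal to B cells; -1.82), 1110034G24Rik (-1.71), Fasl (-1.56), Themis (a T cell receptor signalling protein; -1.56) and Tcf7. Of 9 naive or memory genes, 6 were lower and 2 higher. After thinning 6 naive or memory genes were lower and none higher, 7 of 8 Th1 genes were lower and 1 higher, and 6 of 11 Th17 genes were lower and 2 higher.

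Among Foxp3-positive cells, those with a Helios UMI (1968 cells) differed from those without (1482). Eos went with Helios: Ikzf4 was at 61 ± 16.8 against 22 ± 7.63 CPM (SD, n = 8), a log2 difference of 1.68 ± 0.14 (edgeR with library as a block, adjusted p = 5.75e-12; higher in 8 of 8 libraries), with 290 of 6181 genes called (4.69%, 148 higher and 142 lower). Gata3, the factor of type 2 immunity, was at 141 ± 12.1 against 68.9 ± 15.6 CPM (1.01 ± 0.09), and Il1rl1 at 119 ± 37.4 against 25.3 ± 14.6 (2.66 ± 0.16). Klrg1 (an inhibitory lectin receptor; 1.89), Gzma (granzyme A; from 9.56 to 125 CPM, 4.12 ± 0.2), Penk (the opioid precursor proenkephalin; 2.33), Swap70 (2.45), Tmem158 (1.77) and Pdcd1 (PD-1; 1.57) were higher too.

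Il10, Lag3, Maf and Ctla4 were lower in Helios-positive cells. Il10 was at 200 ± 61.7 against 355 ± 98 CPM (-0.77 ± 0.09; lower in 8 of 8 libraries), Lag3 (an inhibitory receptor) at 185 against 306 (-0.63), Maf (a factor that drives Il10) at 1280 against 1590 (-0.31) and Ctla4 at 1010 against 1240 (-0.28). Gzmb was at 478 against 711 CPM (-0.53), Ccr2 at 399 against 616 (-0.6), and the largest falls also included Gbp2b (-1.65), Prg4 (-1.36), Ccl20 (-1.3), C2cd4b (-1.22), Ccr4 (-0.79), F2r (-0.76) and 2310031A07Rik (-0.75). The Treg signature was split, with 7 of 18 genes higher, such as Swap70 and Tnfrsf9 (0.42), and 5 lower. After thinning 3 of 11 tested signature genes were higher and 1 lower, Il10, while Ctla4 (-0.11, edgeR adjusted p = 0.562) and Gzmb (-0.33, 0.0619) were not called.

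Of 25 inducers 5 were higher in Helios-positive cells and none lower, with Rel (the NF-κB subunit c-Rel; from 305 to 496 CPM, 0.75 ± 0.07), Nr4a2 (1.47), Nr4a3 (0.5) and Nr4a1 (0.42). After thinning 1 of 12 tested inducers was higher, Rel. Stat3 was the only one of 10 silencers called (0.3), Ikzf3 was the only other Ikaros gene called (-0.25), and 3 of 6 Th1 genes were higher, with Ccl5 at 1.18. Helios-positive cells were deeper as well (library medians 2946 to 4362 against 2492 to 3841 UMIs). After thinning, the cells with a Helios UMI numbered 19 to 161 per library, Ikzf4 was too low to be tested, and 79 of 1245 genes were called (6.35%), of which 47 were also called without thinning, all 47 in the same direction. Among them Il1rl1 (2.54), Gata3 (1.78), Rel (1.08), Penk (1.93), Lag3 (-1.04) and Il10 (-0.89) passed. Of the 7 markers of type 2 innate lymphoid cells (ILC2), which include Gata3 and Il1rl1, the cytokine genes Il13 and Il5 were at 0 in the Foxp3-positive cells of all libraries and the other 5 were not. The 7 summed to 499 to 767 CPM in untreated and 656 to 1240 CPM in DSS libraries, and their part in these differences was not tested.

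**Figure D3:**
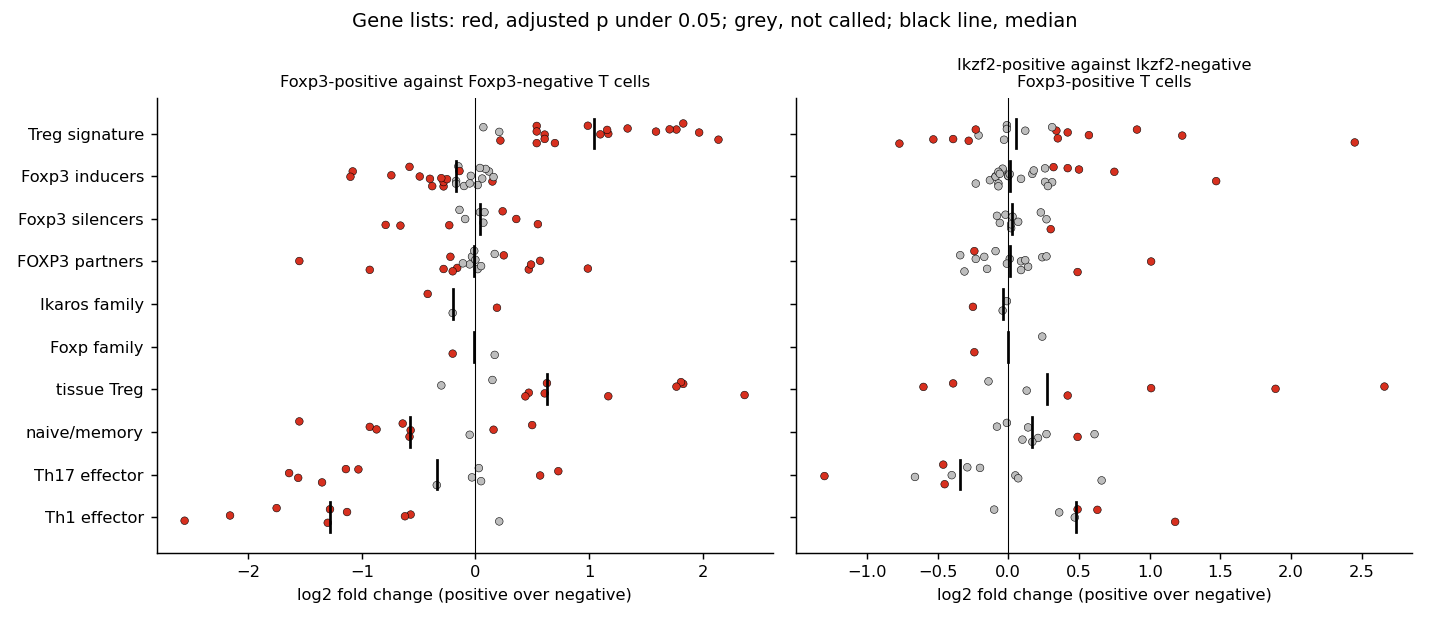
Log2 difference of every tested gene of each list between Foxp3-positive and Foxp3-negative T cells (left) and between Ikzf2-positive and Ikzf2-negative cells among Foxp3-positive T cells (right); each point is a gene, red where called at an adjusted p under 0.05 and grey where not, and the black line is the list's median. On the left the Treg signature has a median of 1.04 and the Th1 list -1.28, and on the right Il1rl1, at 2.66, is the highest point of the tissue Treg list.

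The members were also followed by cluster. The clusters were built from these cells' own expression, so their levels are descriptions without a test. Foxp3 was highest in 2 clusters, L3 with 340 ± 56.5 CPM and L7 with 330 ± 86.1 CPM (SD, n = 8 libraries), which overlap. Next came L8 with 84.1 ± 30.5 CPM, the proliferating-like cluster L6 with 83.2 ± 51.1 and the naive-like cluster L9 with 32.2 ± 15.7, and L8 and L6 do not differ beyond their spread. L3 and L7 scored highest for Treg markers other than the members, but none of the 9 markers fixed for naming a Treg cluster was among their 10 leading genes, so they keep their numbers. L3 (2879 cells) was led by Foxp3, Prg4, Ky, Itgae, Il10 and Gzmb, of which Itgae, Il10 and Gzmb belong to the longer Treg signature, and L7 (1110 cells) by Il1rl1, Klrg1, Dgat2 and Itgae.

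Helios split the pair of Foxp3-high clusters. Ikzf2 was at 1250 ± 223 CPM in L7 and 272 ± 44.7 CPM in L3, with no overlap: 871 to 1560 CPM over the libraries of L7 and 196 to 337 over those of L3. A follicular helper T-like cluster, L2, was second with 389 ± 33.4 CPM although its Foxp3 was 16.8 ± 13.9 CPM, followed by L3, L8 (259 ± 46.2) and L6 (177 ± 35.3). Ikzf4 was likewise highest in L7, at 153 ± 28.6 CPM, then in naive-like L9 at 53.6 ± 19.6, and L8 (27.7 ± 8.22) and L3 (27.3 ± 4.75) overlapped.

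L7 held a larger mean share of T cells and of Ikzf2 and Ikzf4 UMIs in the DSS than in the untreated groups. Shares are given in the order untreated wildtype, untreated mutant, DSS wildtype and DSS mutant (means, n = 2). L7 held 2.92%, 2.43%, 7.46% and 6.58% of T cells. It held 15.8%, 12.4%, 34.1% and 33.2% of Ikzf2 UMIs and 17.9%, 16.8%, 40.8% and 37.9% of Ikzf4 UMIs. L2 held 20.8%, 37%, 15.7% and 12.8% of Ikzf2 UMIs, so that its mean lay above that of L7 in both untreated groups and below it in both DSS groups. L3 held 11.5%, 7.75%, 17.8% and 15.9% of them. Of Foxp3-positive cells, L3 held 45%, 46.8%, 48.2% and 46.6%, L7 12.5%, 13.4%, 21.2% and 19.5%, L8 15.8%, 14.5%, 6.24% and 7.99%, and L2 1.4%, 4.78%, 2.83% and 2.8%. L8 also held 18.7%, 18.9%, 6.09% and 9.71% of Ikzf4 UMIs, so that in untreated mice its means lay above those of L7 in both quantities. These shares are not adjusted for depth, and L8 cells were deeper, with a median of 5117 UMIs against 2542 in L7. In CPM, L8 lay below L7 for both Foxp3 and Ikzf4. The members were left out of the genes used for clustering. The clusters still rest on other genes of the same cells, which can include genes that moved with DSS, so these shares have no test.

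**Figure D4:**
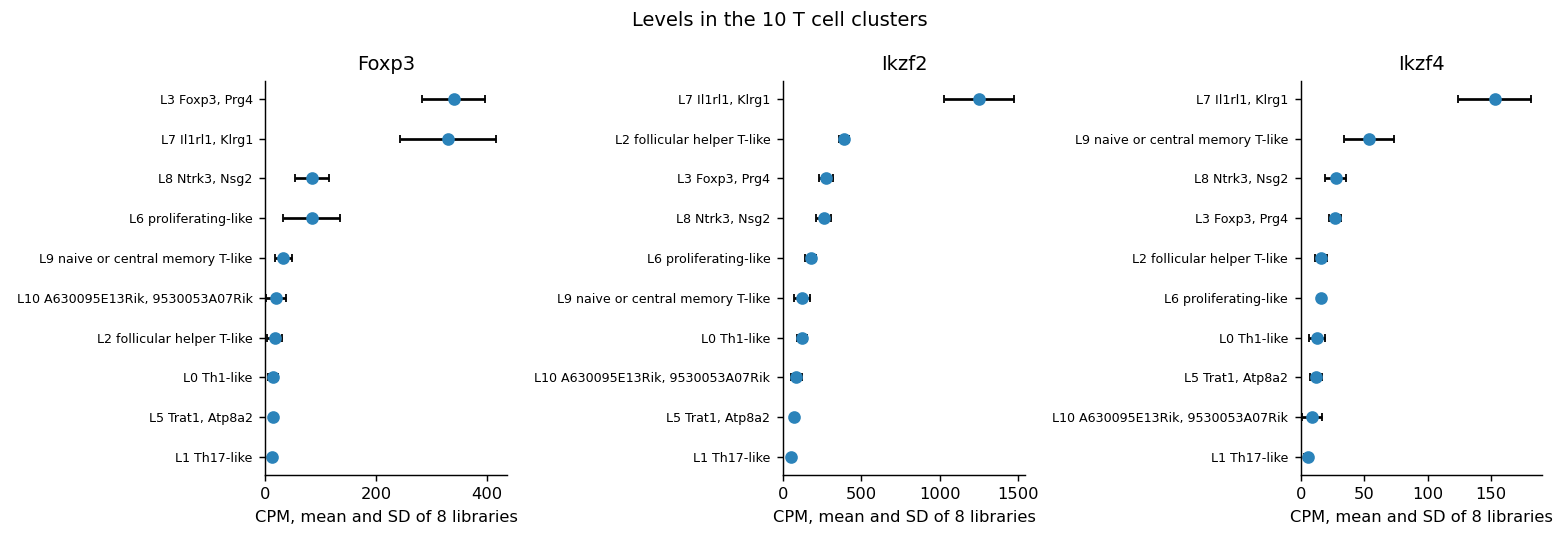
Level of Foxp3, Ikzf2 and Ikzf4 in CPM in each of the 10 clusters of T cells, sorted by level (points: means over 8 libraries; bars: SD). Foxp3 peaks in clusters L3 and L7, whereas Ikzf2 and Ikzf4 peak in L7 with means of 1250 and 153 CPM.

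The pair differed in other Treg genes in every library. Gata3 was at 349 to 468 CPM in L7 and 54.3 to 81.7 CPM in L3. Il10 was at 33.1 to 148 CPM in L7 and 373 to 636 CPM in L3. Il1rl1, a leading gene of L7, was at 291 to 756 CPM there and 7.12 to 21.6 CPM in L3.

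Both clusters had more Foxp3 RNA after DSS. In L3, Foxp3 was at 342, 262, 335 and 247 CPM in untreated wildtype and mutant, and at 378, 385, 377 and 391 CPM after DSS. In L7 it was at 243, 308, 200 and 303 CPM, and at 342, 445, 364 and 438 CPM after DSS. In each, all 4 DSS libraries lay above all 4 untreated ones, as for 11.1% of 5344 genes in L3 and 6.96% of 5319 genes in L7. Ikzf2 in L7 was at 1190, 1270, 871 and 1060 CPM in untreated and 1190, 1470, 1370 and 1560 CPM in DSS libraries, which overlap, and in L3 at 325, 258, 196 and 249 against 264, 337, 258 and 290 CPM, which overlap too. Ikzf4 overlapped in both, at 112 to 162 against 131 to 191 CPM in L7 and 21.6 to 33.4 against 19.5 to 29.7 CPM in L3.

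**Figure D5:**
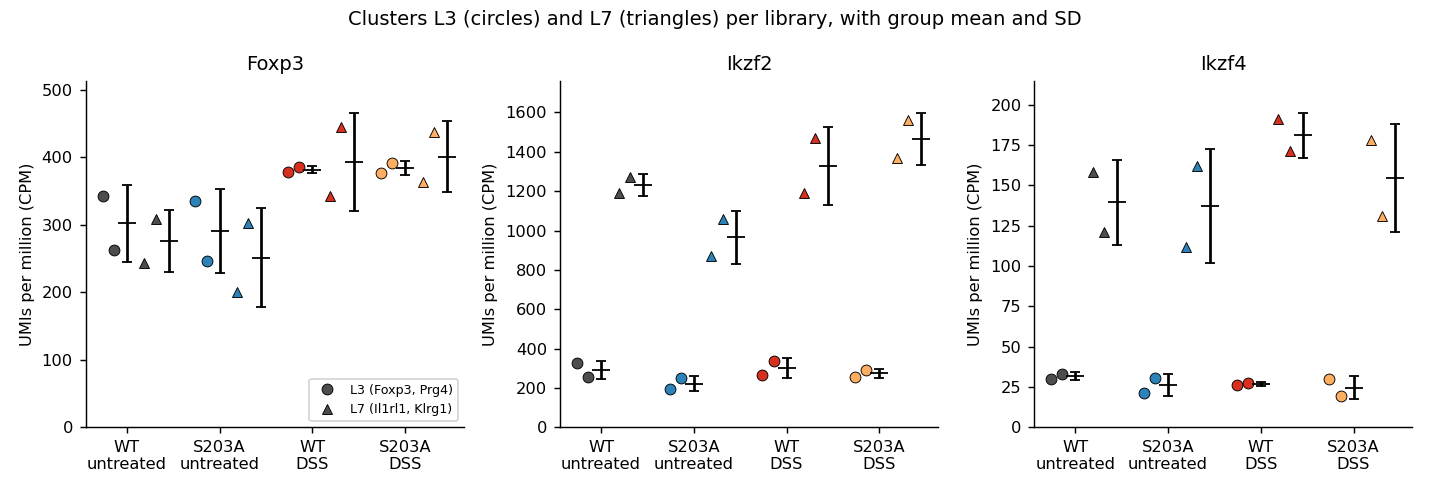
Foxp3, Ikzf2 and Ikzf4 in CPM in clusters L3 and L7 for each library, by group (circles: L3; triangles: L7; bars: group mean and SD, n = 2). Foxp3 is higher in the 4 DSS libraries in both clusters (377 to 391 CPM in L3 and 342 to 445 in L7), and Ikzf2 in L7 (871 to 1560 CPM) lies above that in L3 (196 to 337 CPM) in every group.

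Similarity of level over 52 clusters of all listed and unlisted barcodes, which share libraries and differ in depth, ranked the genes most like each member by Pearson's r of log2(CPM + 1). Foxp3 was followed most closely by Itgae (r = 0.911), Tnfrsf9 (0.892), Neb (0.881), Izumo1r (folate receptor 4; 0.865) and Cd27 (0.849), and had r = 0.825 with Ikzf2 and 0.497 with Ikzf4. Ikzf2 was most like Cd27 (0.891), Izumo1r (0.881), Ttn (0.86), Hacd3 (0.858) and Ncmap (0.857). Ikzf4 had lower values, with Thap3 (0.745), Sh3rf1 (0.737), Ctps2 (0.723), Igtp (0.718) and Elovl6 (0.709), and 0.643 with Ikzf2. No p is given, since clusters are not replicates.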

How the data were processed

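Single-cell 3′ libraries of colonic CD4+-enriched cells were deposited by the authors as tables of UMI counts per gene and barcode, unnormalized. The submitters' processing notes name Cell Ranger 3.1.0, Seurat 4.0.1 and mm10. Barcodes listed by the submitters were normalized to 10000 UMIs per cell and clustered (30 components, 15 neighbours, Leiden in leidenalg 0.10.2, resolution 1, Python 3.11.15). Clusters with at least 50% of the highest T cell marker level were taken as T cells and named only from fixed markers. No doublet caller was run. T cells with 2 or more UMIs of other lineages, not counting dendritic, plasma and mast cell markers, were left out in an alternative added after seeing the data.

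Counts were summed per library over all T cells, over those with at least 1 Foxp3 UMI and over those with none, and tested with edgeR 4.0.16 quasi-likelihood (R 4.3.3, TMM, low counts filtered, all 8 libraries in 1 fit, Benjamini-Hochberg adjusted p under 0.05 called). Comparisons of cells within libraries used 16 sums with library as a block. DESeq2 1.42.0, RLE factors, no filter, only the libraries compared, thinning, other cell choices and single libraries left out were alternatives. Shares came from cells thinned to 1000 UMIs and were tested by exact two-sided permutation (scipy 1.17.1).

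The named genes were the members and up to 4 called genes with the smallest p of each list reported for a comparison. Not every list was reported for every comparison. The 8 largest changes each way among called genes with a mean of at least 20 CPM within libraries were also named, as were the 5 genes most like each member. Genes of the cluster paragraphs and a few others beyond the rule were named after their values were seen. Members and lists were chosen with earlier results of these data known. The results of 1 gene and of the list built around it are not reported here. On simulated counts, 68 of 105 genes changed by a log2 value of 1 were recovered for DSS in wildtype T cells over 10837 genes with 8 false calls, and 46 of 97 in Foxp3-positive cells over 8209 genes with 5 false calls. The simulation gave every gene the same dispersion, so genes that vary more between libraries are not represented by it. Library totals were 6165481 to 14943026 T cell UMIs, and 2 libraries a group limit the precision.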

Additional observations from a re-analysis of the deposited data

Results flagged for a closer look

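Each value here is a mean CPM over the 4 DSS libraries in clusters of barcodes that the submitters did not list as cells and that are not T cells. They are given because every DSS library had over 3 UMIs of the gene and either lay above both untreated wildtype libraries or had no untreated wildtype library with 20 cells to be compared with. The part of T cell RNA in them was not tested.

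In the dendritic-like cluster U17, Foxp3 averaged 45.8 CPM, with 61.6, 49.7, 39.8 and 32.2 in the DSS libraries against 5.12 and 8.77 in untreated wildtype and 8.87 and 9.93 in untreated mutant. Ikzf2 averaged 80.2 CPM there, from 55.5 to 99.4 in the DSS and 17.6 to 59.1 in the untreated libraries, which overlap. Ikzf4 averaged 20.5 CPM, from 13.9 to 37.5 against 2.56 to 11.5, and the cluster's T cell marker level was 16.5% of the highest cluster's. In the macrophage or monocyte-like cluster U3, with a T cell marker level of 6.86%, Foxp3 averaged 12.9 CPM (9.85 to 14.3 in the DSS and 2.02 to 7.3 in the untreated libraries), Ikzf2 39.4 CPM (28 to 51.3 against 12.3 to 22.9) and Ikzf4 5.62 CPM (3.43 to 9.65 against 0.664 to 2.47). In the unnamed cluster U15, led by Igfbp5, Serpina3n and Ereg and holding fewer than 20 cells in each untreated wildtype library, Foxp3 averaged 8.25 CPM, Ikzf2 24.6 CPM and Ikzf4 11 CPM.

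Helios RNA was found in squamous epithelial-like barcodes. In cluster U24, led by Krt14, Krt6a and Krt5, Ikzf2 averaged 105 CPM, from 95.5 to 118 in the 4 DSS libraries on 52 to 204 UMIs and 31 to 111 cells each, while Foxp3 was at 3.86 CPM over the whole cluster and the T cell marker level was 2.51% of the highest cluster's. No untreated wildtype library had 20 such cells.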

How the results depend on the processing

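Counts of called genes moved with several choices. With no filter, DSS called 846 (wildtype) and 1615 (mutant) genes in T cells, 368 and 485 in Foxp3-positive and 628 and 1327 in Foxp3-negative cells. The mutation then called 144, 23 and 131 genes in untreated and 34, 14 and 32 in DSS mice, and the interaction 70, 16 and 64, in T, Foxp3-positive and Foxp3-negative cells. DESeq2 called 201 (T cells) and 101 (Foxp3-negative) genes for DSS in wildtype, 382 for DSS in mutant Foxp3-negative cells, 14, 4 and 16 for the untreated mutant against wildtype, and 153 for Helios-positive against Helios-negative cells. With only the libraries compared, DSS called 86 and 150 genes in T cells, 200 in wildtype Foxp3-positive and 32 and 42 in Foxp3-negative cells, and the mutation 9 in untreated Foxp3-positive cells. T cells by marker counts gave 42 (T cells) and 44 (Foxp3-positive) for DSS in wildtype, 3 for the mutation in untreated Foxp3-positive cells and 187 for the Helios comparison. Thinning gave 281 for DSS in mutant T cells, 10 and 26 for DSS in Foxp3-positive cells, 3 for the untreated mutant and 2 for the interaction there, 7 for DSS in wildtype Foxp3-negative cells, 1168 for Foxp3-positive against Foxp3-negative cells and 79 for the Helios comparison. Cells without UMIs of other lineages gave 36 for DSS in wildtype T cells and 7 for the mutation in untreated Foxp3-positive cells, added barcodes off the list 13 and 1054 for DSS in T cells, and a Foxp3 gate of 2 UMIs 103 for DSS in mutant and 3 for the mutation in untreated Foxp3-positive cells. The gate leaves Foxp3-negative cells as they are, so it gives no further value there. The cause of these moves was not tested.

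Leaving out 1 library at a time, with the lone library of an arm assumed to vary like the other groups, gave 0 to 122 and 0 to 592 calls for DSS in wildtype and mutant T cells, 0 to 197 and 17 to 309 in Foxp3-positive and 0 to 57 and 0 to 249 in Foxp3-negative cells. The mutation gave 0 to 11, 0 to 7 and 0 to 11 calls in untreated and 0 to 4, 0 to 3 and 0 to 4 in DSS mice, and the Helios comparison 188 to 299.

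Among the members, Ikzf2 in T cells passed for DSS with no filter (0.47 in wildtype, 0.47 in mutant) and in mutant mice with barcodes off the list (0.48), and Ikzf4 in wildtype with no filter (0.65). With 1 library left out, the DSS changes were 1.1 to 1.33 and 1.36 to 1.82 for Foxp3 and 0.26 to 0.62 for Ikzf2 in mutant mice. Foxp3 for DSS was positive under each of the 16 alternatives in both genotypes, and Ikzf2 and Ikzf4 were higher in Foxp3-positive than Foxp3-negative cells under each of 15.

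Values near 0 changed sign. For the mutation in untreated T cells Ikzf4 was 0.01 (marker counts), 0.21 (thinned), 0.21 (off the list) and -0.11 to 0.03 (leave-one-out); after DSS, leave-one-out gave -0.27 to 0.14 for Foxp3 and -0.29 to 0.08 for Ikzf2; and the interaction for Ikzf2 was 0.01 (thinned) and -0.22 to 0.15. In Foxp3-positive cells Ikzf4 for DSS in mutant mice was 0.01 (DESeq2), 0.04 (no filter) and -0.22 to 0.24, for the mutation in untreated mice -0.26 to 0.65, Ikzf2 after DSS -0.04 (gate of 2) and -0.14 to 0.24, and its interaction -0.06 to 0.33. In Foxp3-negative cells Ikzf4 for DSS in mutant mice was 0.06 (marker counts), 0.1 (thinned), 0.05 (without other lineages) and -0.16 to 0.01, Ikzf2 -0.07 to 0.24, and Ikzf2 for the mutation in untreated mice -0.04 (thinned) and -0.03 to 0.03.

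Permuting labels over all 8 libraries (exact, 70 labellings, smallest p = 0.0286) put the differences of 6.29, 4.24 and 0.784 points in the Foxp3, Ikzf2 and Ikzf4 shares, 12.3 points in Foxp3 among Ikzf2-positive cells, 0.175 UMIs per Ikzf2-positive and 0.0902 per Foxp3-positive cell at that smallest p (0.0857 adjusted). Mutant minus wildtype, UMIs per Foxp3-positive cell became -0.0165 (marker counts), per Ikzf2-positive cell -0.0339 (1500 UMIs), -0.0541 (marker counts) and -0.000737 to 0.0588 (leave-one-out), and per Ikzf4-positive cell 0.0237 (1500 UMIs). The Ikzf2 share became 0.323 (no thinning) and -1.65 to 0.224 (leave-one-out). Among Foxp3-positive cells, the Ikzf2 share became -1.92 (1500 UMIs), -3.57 (marker counts) and -1.49 to 3.09, and the Ikzf4 share -2.05, -1.08 and -0.694 to 1.87, while its DSS difference became -0.401 (marker counts) and -0.00766 to 2.56. No paired analysis was made, because the labels give no replicate number that groups share and do not say what the numbers in the titles stand for. Ikzf4 was detected in 2.14% of thinned T cells, and after thinning it was too low to be tested in the Helios comparison.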

Other observations

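Barcodes that passed 400 genes and 20% mitochondrial UMIs but are not on the submitters' list held 2 further Foxp3-high clusters. The Treg-like cluster U4 (5191 barcodes, led by Foxp3, Gzmb and Il10) had Foxp3 at 333 ± 76.6, Ikzf2 at 373 ± 81.1 and Ikzf4 at 38.2 ± 7.59 CPM (SD, n = 8 libraries). Cluster U10 (2474 barcodes) had Foxp3 at 324 ± 123, Ikzf2 at 1210 ± 423 and Ikzf4 at 156 ± 48.2 CPM. U10 was led by Mcpt1, Il1rl1, Klrg1 and Il5, which include the mast cell marker Mcpt1 and the ILC2 markers Il1rl1 and Il5, and the ILC2 marker Gata3 was also among its 10 leading genes. It was left unnamed. Among Foxp3-low T cells off the list, the naive or central memory T-like cluster U7 (4053 barcodes) had Ikzf4 at 44.8 ± 6.45 CPM beside Foxp3 at 25.2 ± 16.6 CPM, and so stood with listed cluster L9 in carrying Eos RNA at low Foxp3.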
